A study of Glycine max with 24 samples.

Results

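Infested leaves of the aphid-resistant soybean (Glycine max) cultivar LD05-16060 were compared between 7 days and 1 day of infestation. The comparison took the arrays titled as resistant leaves with aphids, 3 of day 7 and 3 of day 1, which are 6 of the 24 arrays of the series. All plants were grown in a chamber at 25 C with 16 h of light a day and received aphids or none at the V3 stage, when the third trifoliate leaf is out. Infested plants started with 30 soybean aphids, 10 per leaflet on the upper face, of which no fewer than 21 were adults. The other groups used here were uninfested leaves of LD05-16060 on day 7 and day 1, and infested leaves of the aphid-susceptible cultivar SD01-76R on day 7 and day 1, again with 3 arrays each. Uninfested SD01-76R leaves of day 7 and day 1 also entered the fit and are shown once in a plot. Every plant was netted, aphids were taken off before sampling, and total RNA of the third trifoliate leaf was hybridised to 1-colour Affymetrix soybean arrays. The labels do not say whether a sample pooled several plants.

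The soybean aphid feeds from sieve elements, the sugar-conducting cells of the phloem. A resistant cultivar limits how well aphids settle and multiply, and plant responses to such feeding are commonly followed through the hormones jasmonate, salicylate, ethylene and abscisic acid and through the transcription factors that act with them. Over the same days a young trifoliate leaf goes on expanding and maturing, with its own shifts in photosynthetic, cell wall and water transport genes. Days of feeding and days of leaf age ran together in infested plants, so they cannot be told apart within this comparison. The day difference of uninfested leaves is therefore given beside each main result. In whole leaves, fewer cells of a type and less RNA per cell cannot be told apart either.

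Values are log2 intensities of probe sets, groups of short probes read as 1 transcript, after quantile normalization over the 24 arrays. Over all single values of the soybean probe sets on the 24 arrays, the 5th percentile was 5.28, the median 7.61 and the 95th percentile 11.16. Leaf genes were bright and genes of other organs mostly dim. The 8 light-harvesting and photosynthesis genes had levels of 8.34 to 14.55 on day 7 and 8.74 to 14.87 on day 1. By contrast 13 seed storage genes had medians of 5.53 on day 7 and 5.52 on day 1, with highest levels of 6.21 and 6.07. The 15 root and nodule genes had medians of 5.59 on day 7 and 5.69 on day 1, but their highest levels were 10.30 and 10.07. Among the 6 arrays, replicate 2 of day 1 stood apart. Its score on the first principal component was 66.2, against 23.1 and -12.5 for the other day 1 arrays and -23.2, -54.2 and -42.6 for the day 7 arrays. Its control probe sets also had the largest 3' minus 5' signal difference, a sign of RNA quality, with 1.67 on the log2 scale against 0.928 and 0.809 for the other day 1 arrays and 0.888, 1.11 and 0.985 for those of day 7. The part of this array's RNA quality in the results was not tested apart from the values given below.

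Between day 7 and day 1 of infestation, 302 of 37593 soybean probe sets changed (0.803%) in the limma fit at a Benjamini-Hochberg adjusted p below 0.05. Of these, 167 rose (0.444%) and 135 fell (0.359%). The rises had a median fold of 2.49, with 107 at 2-fold or more and 32 at 4-fold or more, and the falls had a median fold of 2.20, with 87 at 2-fold or more and 9 at 4-fold or more. Lipoxygenase, aquaporin, transcription factor and kinase genes were among the named rises, and an aquaporin, a RAV factor and zeaxanthin epoxidase were among the named falls. The 3 day 7 arrays did not overlap with the 3 day 1 arrays in 297 of the 302, and such separation was seen in 15.6% of all probe sets.

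These calls lay close under the threshold, with adjusted p from 0.0264 to 0.0499, and the number of calls turned on single arrays. It was 0 without day 7 replicate 2, 5 without day 7 replicate 3, and 1 each without day 1 replicate 1 or day 1 replicate 2. It was 1224 without day 7 replicate 1 and 2287 without day 1 replicate 3. At an unadjusted p below 0.05 there were 6265 probe sets, against 1880 that this threshold would pass if no probe set differed. Without the array that stood apart, day 1 replicate 2, all 302 kept their direction. For the 297 with separated groups this was fixed beforehand. Without that array the median difference of the rises was 1.20 in place of 1.31 on the log2 scale, and that of the falls was -0.99 in place of -1.14. That array lay farthest from day 7 in 108 of the 167 rises and in 79 of the 135 falls, and day 1 replicate 3 in 12 and 4. Among day 7 arrays, replicate 2 lay farthest from day 1 in 95 rises and 71 falls, and replicate 1 in 13 and 7.

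Few of the changed probe sets carry a gene name in the annotation used here. Of the 302, 201 were tied to no single gene and 101 to 1 gene, and 23 of these had a name other than a locus number, which is 1.22% of the 1882 named probe sets. They stood for 20 genes, 15 that rose and 5 that fell. The rule that chose these genes required the day 7 arrays to lie wholly above or wholly below the day 1 arrays. Their separation is therefore a description here and below.

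LOX7, a lipoxygenase of the enzyme family that oxygenates polyunsaturated fatty acids and feeds jasmonate synthesis, showed the largest named rise. Its probe set read 11.87, 12.87 and 13.02 on day 7, against 9.86, 7.25 and 10.25 on day 1. All day 7 arrays lay above all day 1 arrays, and day 1 replicate 2 was by far the lowest. The difference was 3.47 ± 0.76 (SE, n = 3 arrays each, limma adjusted p = 0.041), an 11.1-fold rise. Another of its 4 probe sets also rose, by 2.99 ± 0.67 (adjusted p = 0.044), and the remaining pair differed by 2.28 and 2.31 with adjusted p of 0.057 and 0.053. Lipoxygenase genes resemble each other closely, and both called probe sets are of types whose probes can match several transcripts, so signal from relatives of LOX7 cannot be separated here.

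Aquaporins, the membrane channels for water, moved in both directions. GmTIP1;6, of the family found in the vacuole membrane, read 10.11, 9.16 and 10.79 on day 7, against 7.19, 7.89 and 7.74 on day 1. It rose by 2.41 ± 0.52 (limma adjusted p = 0.039), and 1 more of its 3 probe sets differed by 2.22 with an adjusted p of 0.0505. PIP2-9, of the plasma membrane family, read 12.51, 11.96 and 12.43 on day 7, against 10.48, 11.13 and 10.32 on day 1. The groups did not overlap, and the rise was 1.66 ± 0.37 (adjusted p = 0.046). PIP2-8, a member of the same family, went the other way, with 10.94, 11.01 and 10.80 on day 7, against 11.92, 12.54 and 11.50 on day 1. It fell by 1.07 ± 0.21 on the log2 scale (adjusted p = 0.038), while its second probe set differed by -0.67 with an adjusted p of 0.061. Of 22 aquaporin genes read by their brightest probe set, 2 rose, 0 fell and 20 did not pass, against 0.973% rising and 0.265% falling of 1131 named genes. The median of the 22 was -0.08 (-0.22 to -0.01 when each array was left out) and that of all named genes 0.01.

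Called members were found in several transcription factor families. BZIP71, a basic leucine zipper factor, read 10.57, 11.60 and 11.07 on day 7, against 9.45, 8.87 and 9.75 on day 1. Its groups did not overlap, and both of its probe sets rose, by 1.72 ± 0.30 and 1.58 ± 0.28 (limma adjusted p = 0.028 for each). WRKY51, of the family of W-box-binding factors prominent in plant defence, read 6.42, 7.32 and 7.06 on day 7, against 5.55, 5.22 and 5.76 on day 1. That probe set rose by 1.42 ± 0.26 on the log2 scale (adjusted p = 0.029), but its day 1 values lay near the 5th percentile of the array, so no fold is given. The other WRKY51 probe sets, all brighter on average over these 6 arrays, differed by 0.36, 0.89 and 0.93 with adjusted p of 0.433, 0.118 and 0.097. WRKY22 rose by 0.77 ± 0.16 (adjusted p = 0.038), with 8.61, 8.81 and 8.82 on day 7, against 7.92, 7.75 and 8.26 on day 1. The array sets of WRKY22 were apart by a narrow margin, and 2 of its 5 probe sets passed.

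DREB2, a factor that binds the dehydration-responsive element of drought and cold genes, read 9.56, 10.53 and 10.24 on day 7, against 8.99, 8.57 and 8.83 on day 1. Every day 7 array was higher, and the rise was 1.31 ± 0.30 (limma adjusted p = 0.047). RAV, a factor with AP2 and B3 DNA-binding domains, read 7.14, 6.29 and 6.76 on day 7, against 8.75, 7.58 and 8.03 on day 1. It fell by 1.39 ± 0.32 on the log2 scale (adjusted p = 0.048), and its other probe sets differed by -1.53 and -0.82 with adjusted p of 0.052 and 0.095.

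Other named rises included a heat shock protein and a pair of kinases. HSP22.3, a small heat shock protein that keeps damaged proteins from clumping, read 8.02, 9.09 and 8.85 on day 7, against 6.81, 6.92 and 6.87 on day 1. The day 1 arrays were nearly identical, and the rise was 1.78 ± 0.35 (limma adjusted p = 0.038). The protein kinases SPK-3 and SPK-4 rose by 0.86 ± 0.18 and 0.84 ± 0.19 (adjusted p = 0.039 and 0.046). SPK-3 read 9.70, 9.76 and 9.86 on day 7, against 8.54, 8.93 and 9.26 on day 1. SPK-4 read 9.38, 9.35 and 9.59 on day 7, against 8.67, 8.28 and 8.84 on day 1, and in both kinases the day 7 arrays were the tighter group. A second SPK-3 probe set differed by 0.10 with an adjusted p of 0.870. P5CR, pyrroline-5-carboxylate reductase, which makes proline in its last step of synthesis, had the smallest rise of the named genes, 0.53 ± 0.11 (adjusted p = 0.038). Its levels were 9.33, 9.64 and 9.49 on day 7, against 8.90, 8.82 and 9.15 on day 1.

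DRR1 rose by 1.88 ± 0.39 (limma adjusted p = 0.038), with 11.78, 12.04 and 11.66 on day 7, against 9.74, 9.40 and 10.68 on day 1. CYP72A67, a cytochrome P450, rose by 1.49 ± 0.34 (adjusted p = 0.047), with 10.81, 11.50 and 11.27 on day 7, against 9.56, 9.11 and 10.45 on day 1. In both genes day 1 replicate 3 lay closest to the day 7 arrays. DMT1, a metal ion transporter of the NRAMP family, rose by 0.81 ± 0.18 (adjusted p = 0.042) with little spread, with 9.95, 9.96 and 10.07 on day 7, against 9.17, 9.34 and 9.04 on day 1. MET2 rose by 1.24 ± 0.28 (adjusted p = 0.044), with 11.22, 11.80 and 11.91 on day 7, against 10.31, 10.21 and 10.70 on day 1. This was 1 of 5 MET2 probe sets, and the others differed by 0.14 to 0.29 with adjusted p of 0.57 or more.

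The remaining falls were those of ZEP, SHOOT1 and SOYCTA. ZEP, zeaxanthin epoxidase, an enzyme of carotenoid turnover that also stands early in abscisic acid synthesis, read 11.78, 11.39 and 10.84 on day 7, against 12.72, 12.43 and 12.04 on day 1. Its groups were apart, and it fell by 1.06 ± 0.24 on the log2 scale (limma adjusted p = 0.046). SHOOT1 fell by 1.47 ± 0.29 (adjusted p = 0.038), with 10.30, 9.48 and 9.24 on day 7, against 11.53, 11.27 and 10.64 on day 1. SOYCTA fell by 0.71 ± 0.16 (adjusted p = 0.045), with 9.66, 9.30 and 9.17 on day 7, against 10.08, 10.25 and 9.93 on day 1. The other probe sets of SHOOT1 and SOYCTA did not pass, with differences of -0.37 and -0.49.

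**Figure D1:**
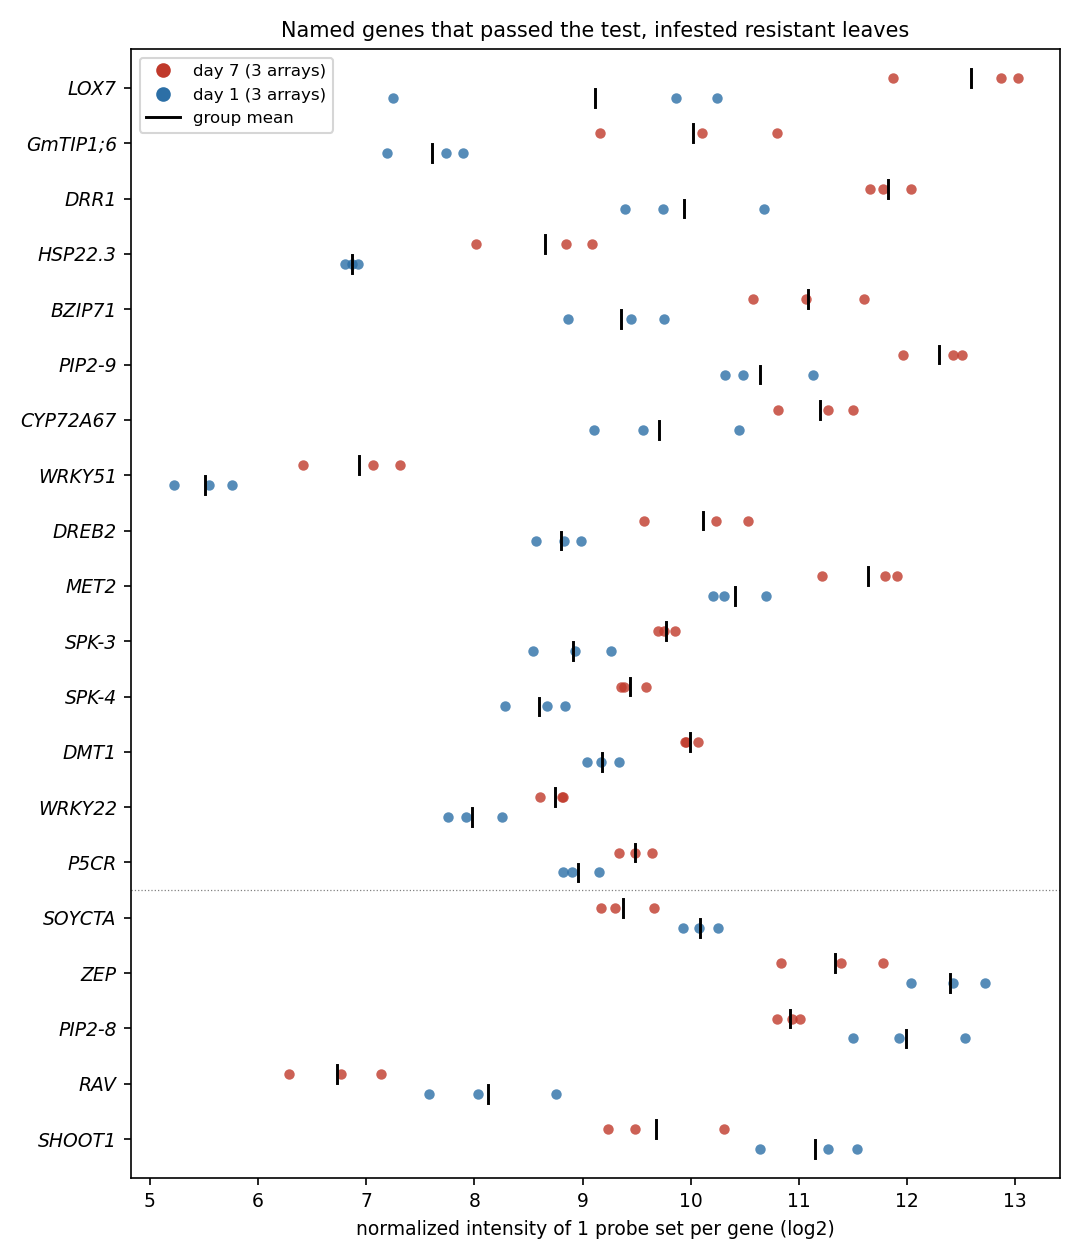
Normalized intensity (log2, x axis) of the 20 named genes that passed the test in infested resistant leaves, with 1 point per array, day 7 drawn above day 1 and a black tick at each group mean. The 15 genes above the dotted line rose and the 5 below it fell. In none of the 20 do the 3 day 7 points overlap with the 3 day 1 points, which the rule that chose them required.

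The widest differences were in probe sets tied to no single gene in the annotation. The probe set Gma.2044.1.S1_at read 10.35, 14.42 and 12.23 on day 7, against 5.98, 5.79 and 7.63 on day 1, a rise of 5.87 ± 1.04 (limma adjusted p = 0.028). GmaAffx.81362.1.S1_at followed with 8.38, 11.83 and 10.27 on day 7, against 5.50, 5.52 and 7.66 on day 1, a rise of 3.93 ± 0.92 (adjusted p = 0.049). In both, day 7 replicate 2 was highest and day 1 replicate 3 highest of its group, and several day 1 values lay near the dim end of the array, so no fold is given. GmaAffx.89132.1.A1_s_at fell by 3.70 ± 0.80 (adjusted p = 0.039), with 10.20, 7.62 and 9.49 on day 7, against 13.05, 13.57 and 11.81 on day 1. GmaAffx.67694.1.S1_at fell by 2.44 ± 0.41 (adjusted p = 0.028), with 8.18, 7.10 and 7.26 on day 7, against 10.70, 10.13 and 9.02 on day 1.

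Uninfested leaves of the same cultivar address whether the day difference is also seen without aphids. Their day difference rests on other arrays than that of infested leaves, though the fit shares 1 estimate of spread. In uninfested resistant leaves 1469 probe sets (3.91%) changed between day 7 and day 1. Of the 302 of infested leaves, 299 (99.0%) had the same sign in uninfested leaves, against 69.7% of all probe sets, and 196 passed in both in the same direction. These 196 are 64.9% of the calls in infested leaves and 13.3% of those in uninfested leaves. The median size of the 302 was 1.19 in infested and 1.09 in uninfested leaves. The 302 were chosen on the infested leaves, so their sizes there are a description.

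The test of the difference itself, infested minus uninfested day difference in the resistant cultivar, called 0 probe sets in limma. At an unadjusted p below 0.05 it passed 1032 probe sets, fewer than the 1880 that the threshold alone would pass, and the smallest adjusted p was 1.00. Of the 302, 26 had an unadjusted p below 0.05 in it. A p that misses the threshold does not show that both kinds of leaves behaved alike, and the intervals were wide: for LOX7 the difference of day differences was -0.21 with a 95% interval from -2.44 to 2.03, and for BZIP71 it was -0.41 with an interval from -1.31 to 0.49.

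All 20 named genes had the same direction in uninfested resistant leaves, and 16 passed there too. LOX7 differed by 3.67 ± 0.76 in uninfested leaves (limma adjusted p = 0.010) and GmTIP1;6 by 2.99 ± 0.52 (adjusted p = 0.004). The 4 that did not pass there were DREB2, MET2, SHOOT1 and SOYCTA. MET2 had 11.95, 11.22 and 12.04 on day 7, against 12.18, 11.45 and 10.78 on day 1, in uninfested leaves. These groups overlapped, and the day difference was 0.27 ± 0.28 (adjusted p = 0.695). The infested minus uninfested difference for MET2 was 0.97, with a 95% interval from 0.15 to 1.78, an unadjusted p of 0.022 and an adjusted p of 1.00. DREB2 had a day difference of 0.64 ± 0.30 in uninfested leaves (adjusted p = 0.280), and its difference of day differences was 0.67 with an interval from -0.22 to 1.57. SPK-4 leaned the other way, with a day difference of 1.53 ± 0.19 in uninfested leaves (adjusted p = 0.001) and a difference of day differences of -0.68, with an interval from -1.25 to -0.12 and an adjusted p of 1.00.

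The named genes with the smallest p in that test did not pass either. SCAM-5, a calmodulin, differed by -0.40 between the days in infested leaves and by 0.30 in uninfested leaves, a difference of -0.70 with a 95% interval from -1.15 to -0.26. HPS differed by 0.04 in infested and -0.50 in uninfested leaves, and FAD8.2, a fatty acid desaturase, by -0.16 in infested and 0.39 in uninfested leaves. UR2 differed by 0.37 in infested and -0.18 in uninfested leaves, and TBP1, a TATA-binding protein, by -0.04 in infested and -0.43 in uninfested leaves. Other probe sets gave smaller differences of day differences, namely -0.26 for SCAM-5, -0.12 and -0.15 for the brighter FAD8.2 probe sets, 0.30 for UR2 and -0.21 to 0.23 for TBP1. The probe sets of SCAM-5, HPS and FAD8.2 chosen by smallest p had means of 5.16 to 5.67 in these 4 groups, near the dim end of the array.

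**Figure D2:**
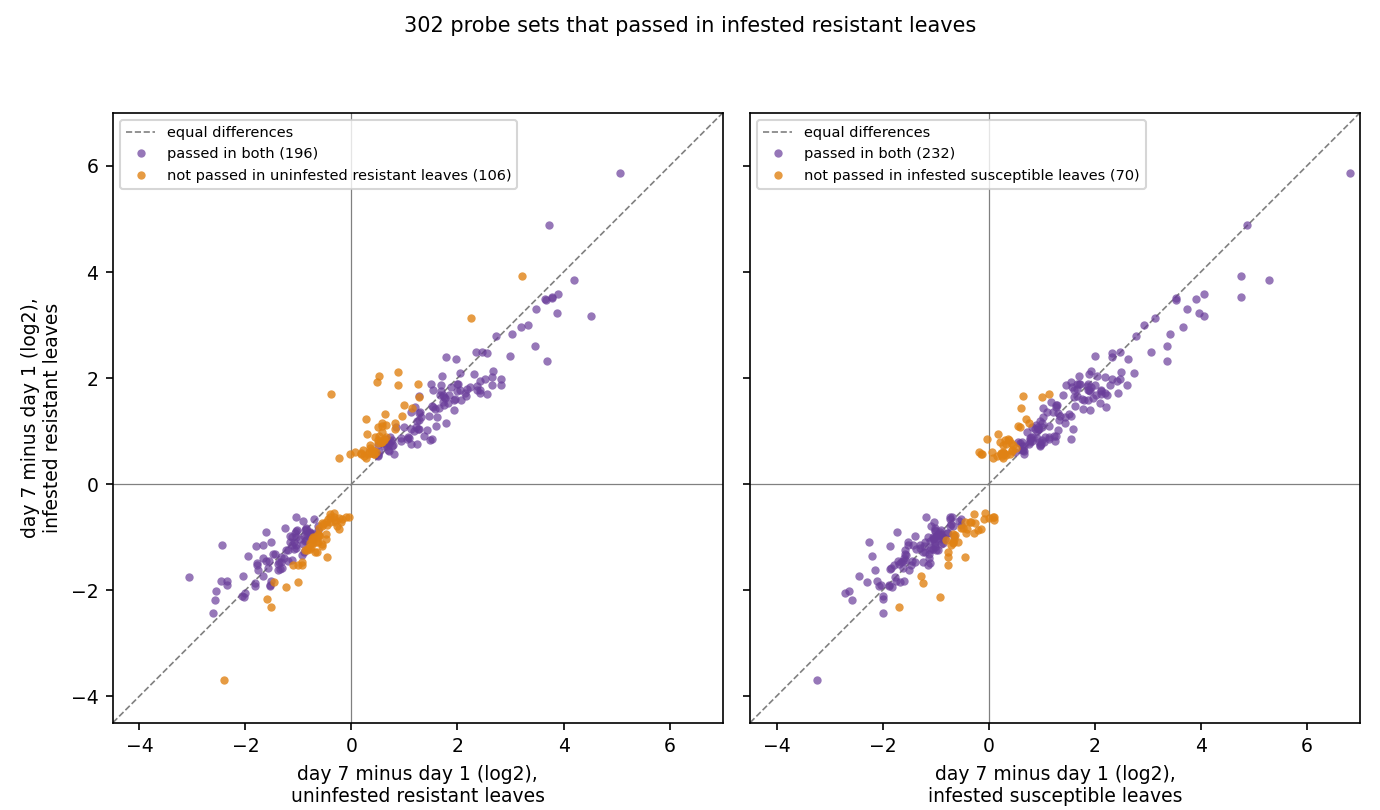
Log2 day differences (day 7 minus day 1) of the 302 probe sets that passed in infested resistant leaves (y axis) against those in uninfested resistant leaves (left, x axis) and infested susceptible leaves (right, x axis), with the dashed line at equal differences. In the left panel 196 points and in the right panel 232 points passed in both kinds of leaves, and nearly all points share the sign of both axes.

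Infested leaves of the susceptible cultivar address whether the day difference depends on the cultivar. There 2515 probe sets (6.69%) changed between day 7 and day 1, again on arrays not shared with the resistant leaves. Of the 302, 294 (97.4%) had the same sign in susceptible leaves, against 66.5% of all probe sets, and 232 passed in both in the same direction, which is 76.8% of the calls in resistant and 9.22% of those in susceptible leaves. In all 3 kinds of leaves 177 probe sets passed in the same direction, and 51 of the 302 passed in infested resistant leaves and in neither of the others. Of the 20 named genes, MET2 and SOYCTA were of that last kind, and 15 passed in susceptible leaves.

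The resistant minus susceptible difference of the day differences in infested leaves also called 0 probe sets in limma, with 2155 at an unadjusted p below 0.05 and a smallest adjusted p of 0.0652. That smallest value belonged to SCAM-5, which read 4.91, 5.51 and 5.39 on day 7 and 5.72, 5.74 and 5.55 on day 1 in resistant leaves. In susceptible leaves it read 6.62, 6.21 and 6.44 on day 7 and 5.64, 5.15 and 5.43 on day 1. Day 7 lay below day 1 in resistant and above it in susceptible leaves, without overlap in either, and the difference of the day differences was -1.42 with a 95% interval from -1.86 to -0.98. The second SCAM-5 probe set had a difference of -0.15 with an adjusted p of 0.958. ACS1, an enzyme of ethylene synthesis, read 6.22, 6.13 and 6.30 on day 7 and 6.77, 5.81 and 5.67 on day 1 in resistant leaves, a day difference of 0.13. In susceptible leaves it read 9.43, 7.60 and 9.02 on day 7 and 6.90, 5.95 and 6.14 on day 1, a day difference of 2.36. The difference of -2.22 had an interval from -3.58 to -0.87 and an adjusted p of 0.849. The ACS1 probe sets disagreed in resistant leaves: another differed by 0.03, and the one read in the ethylene list by -1.06 with day 7 wholly below day 1 (adjusted p = 0.159), while in susceptible leaves they differed by 2.03 and 0.61. EXP2, an expansin that loosens cell walls, differed by -0.38 between the days in resistant and by -1.83 in susceptible leaves, with an adjusted p of 0.849 for the difference of 1.44. Its other probe sets differed by -1.08 and -1.20 in resistant and by -2.12 and -2.25 in susceptible leaves. GSTU28, a glutathione S-transferase, and ADF1, an actin-depolymerising factor, followed with differences of 0.73 and 0.82 at the same adjusted p, and the other ADF1 probe sets had differences of -0.19 to 0.05. For PIP2-9 the day difference was 1.66 in resistant and 0.64 in susceptible leaves, and the difference of 1.02 had an interval from -0.09 to 2.12.

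**Figure D3:**
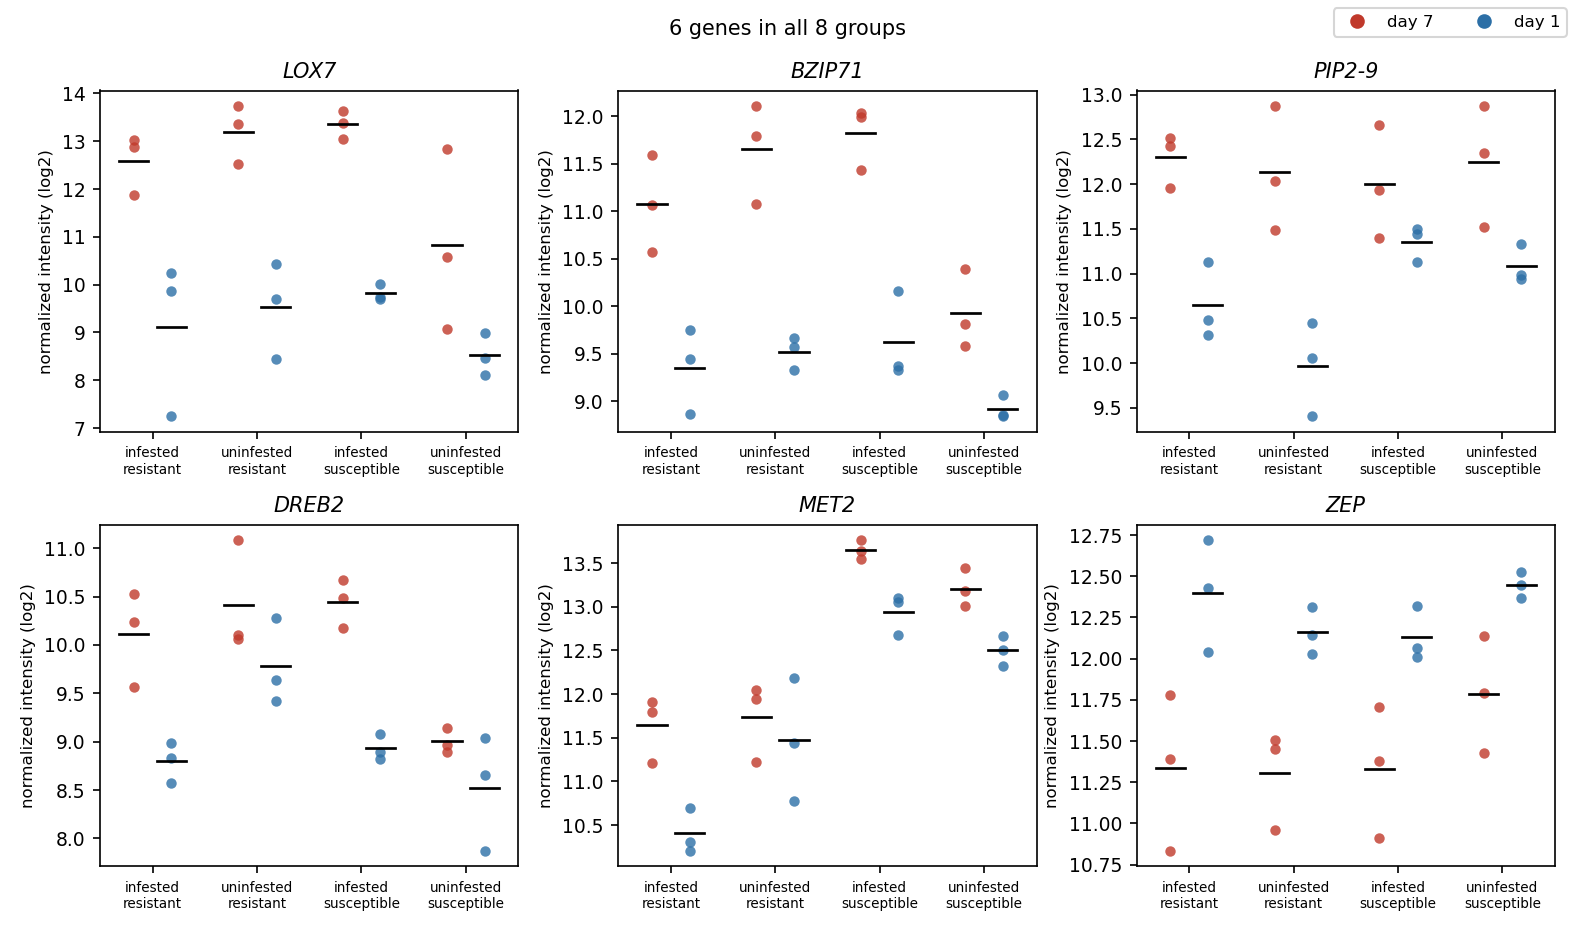
Normalized intensity (log2, y axis) of LOX7, BZIP71, PIP2-9, DREB2, MET2 and ZEP in all 8 groups, with 1 point per array, day 7 left of day 1 in each kind of leaf, and a black bar at each group mean. In infested resistant leaves LOX7, BZIP71, PIP2-9, DREB2 and MET2 are higher and ZEP is lower on day 7, while for MET2 the days overlap in uninfested resistant leaves.

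Gene lists by pathway were read with 1 probe set per gene, the brightest, and described by counts and medians beside those of all 1131 named genes, of which 11 rose, 3 fell and the median was 0.01. Factors of the WRKY family numbered 53, of which 1 rose, 0 fell, 39 lay below 0 and the median was -0.22. That median ran from -0.48 to -0.06 when each array was left out. WRKY58 and WRKY39 differed by -1.22 and -0.91 with adjusted p of 0.14 and 0.15. The 67 bZIP factors had 1 rise, BZIP71, and a median of 0.04. Of 71 MYB factors 0 passed and 48 lay below 0, with a median of -0.10. MYB186 had 7.26, 7.64 and 7.06 on day 7, against 9.56, 8.30 and 8.32 on day 1, and its difference of -1.41 had an adjusted p of 0.059. Among 20 NAC factors 0 passed and 16 lay above 0, with a median of 0.46 that ran from 0.07 to 0.59 when each array was left out. Of 10 DREB and cold-inducible factors 1 rose and 9 lay above 0, with a median of 0.44. Uninfested resistant leaves had medians of -0.25 for WRKY, -0.02 for bZIP, -0.17 for MYB, 0.22 for NAC and 0.41 for the DREB list.

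Abscisic acid genes had the highest list median, 0.67, with 2 of 6 rising, the kinases SPK-3 and SPK-4. The list holds 4 SPK kinases, BZIP1 and MAT1 and not ZEP, the gene of abscisic acid synthesis described above that fell. SPK-3 and SPK-4 are also in the list of 16 calcium signalling and kinase genes, whose median was 0.05. The abscisic acid median was 0.94 in uninfested resistant and 0.83 in infested susceptible leaves. MAT1, a maturation protein also held by the list, read 7.92, 13.35 and 9.10 on day 7, against 6.36, 5.93 and 6.39 on day 1. Day 7 replicate 2 stood far above the rest, and the difference of 3.90 ± 1.16 had an adjusted p of 0.102. Seed maturation proteins and dehydrins, which accumulate in drying seeds and under water stress, had 25 of 34 members above 0 and 11 with day 7 wholly above day 1, although 0 passed. Their median was 0.24, from 0.10 to 0.40 when each array was left out, and 0.29 in uninfested resistant leaves. Such separation upward was seen in 140 of the 1131 named genes, read in the same way, and in 8.92% of all soybean probe sets. PM30 read 7.14, 12.31 and 9.60 on day 7, against 5.47, 5.43 and 6.18 on day 1, with an adjusted p of 0.082, and PM35 read 8.85, 11.71 and 10.42 on day 7, against 7.61, 5.60 and 8.16 on day 1, with an adjusted p of 0.064. TENA_E came nearest to the threshold, with a difference of 0.70 ± 0.17 and an adjusted p of 0.0505.

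Of 16 jasmonate synthesis genes, read by their brightest probe sets, 0 passed and 11 lay above 0. Day 7 lay wholly above day 1 in 6 of the 16, AOC2 among them, against 140 of the 1131 named genes. The list's lipoxygenases were spread out. LOX10 at 3.05, LOX7 at 2.28, LOX9 at 2.05 and LOX1.4 at 1.73 had day 7 wholly above day 1, with adjusted p from 0.057 to 0.172. The same genes differed by 3.61, 2.59, 1.47 and 1.67 in uninfested resistant leaves. In infested susceptible leaves they differed by 3.36, 2.16, 1.66 and 2.58. LOXB1, LOX2, VLXB, LOX1.1, LOX3 and VLXC lay between -0.16 and 0.41, and of these LOX2 also had day 7 wholly above day 1. The allene oxide synthases AOS2 and AOS1 differed by -0.85 and -0.30 (adjusted p = 0.29 and 0.55). Among the allene oxide cyclases, AOC3 and AOC4 differed by -0.58 and -0.48 and AOC6 and AOC2 by 0.17 and 0.74, with adjusted p of 0.14 or more. In uninfested leaves AOS2 and AOS1 differed by -1.89 and -0.96 and passed (adjusted p = 0.01 and 0.03). In infested susceptible leaves they differed by -1.43 and -0.92 and passed too (limma adjusted p = 0.038 and 0.025). The infested minus uninfested difference of the day differences passed for no gene. The list of jasmonate response genes and storage proteins had 0 of 7 passing, with VSPA, a vegetative storage protein, at 2.01 and an adjusted p of 0.18. It also holds VSP27, LOXB1, GmJAZ1, COI1, KTI1 and KTI3, so it is not a list of storage proteins alone. Of 14 salicylate and pathogenesis-related genes 0 passed and 10 lay below 0, with a median of -0.20 that ran from -0.38 to -0.04 when each array was left out, and -0.49 in uninfested resistant leaves. Of 8 ethylene genes 0 passed, with a median of -0.07 (-0.17 to -0.03 when each array was left out) and -0.29 in uninfested resistant leaves.

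Photosynthesis and phenylpropanoid lists leaned below 0 without a call. Of 8 light-harvesting and photosynthesis genes 7 lay below 0, with a median of -0.37, and -0.45 in uninfested resistant leaves. LHCP, a light-harvesting chlorophyll protein, read 14.10, 13.10 and 13.49 on day 7, against 14.45, 14.46 and 14.20 on day 1. Its difference of -0.80 ± 0.20 had an adjusted p of 0.063, and it passed in uninfested resistant leaves with -1.18 (adjusted p = 0.004). CHLH, a subunit of the magnesium chelatase of chlorophyll synthesis, read 10.05, 8.70 and 8.05 on day 7, against 11.99, 11.89 and 9.65 on day 1. These groups overlapped, and the difference of -2.24 had an adjusted p of 0.057. Of 10 phenylpropanoid and lignin genes 9 lay below 0, with a median of -0.44 that ran from -0.73 to -0.23 when each array was left out, and -0.98 in uninfested resistant leaves. PAL2.1, phenylalanine ammonia-lyase, the entry enzyme, differed by -0.80 ± 0.40 with an adjusted p of 0.32, and in uninfested leaves by -1.84 with an adjusted p of 0.01. Of 9 phloem genes, mostly sieve element occlusion genes, 0 passed and 8 lay below 0. Their median was -0.37 (-0.59 to -0.20 when each array was left out) and -0.19 in uninfested resistant leaves. Their levels were dim, with medians of 5.91 on day 7 and 6.59 on day 1, and SUT1, a sucrose transporter, differed by 0.50 with an adjusted p of 0.28.

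**Figure D4:**
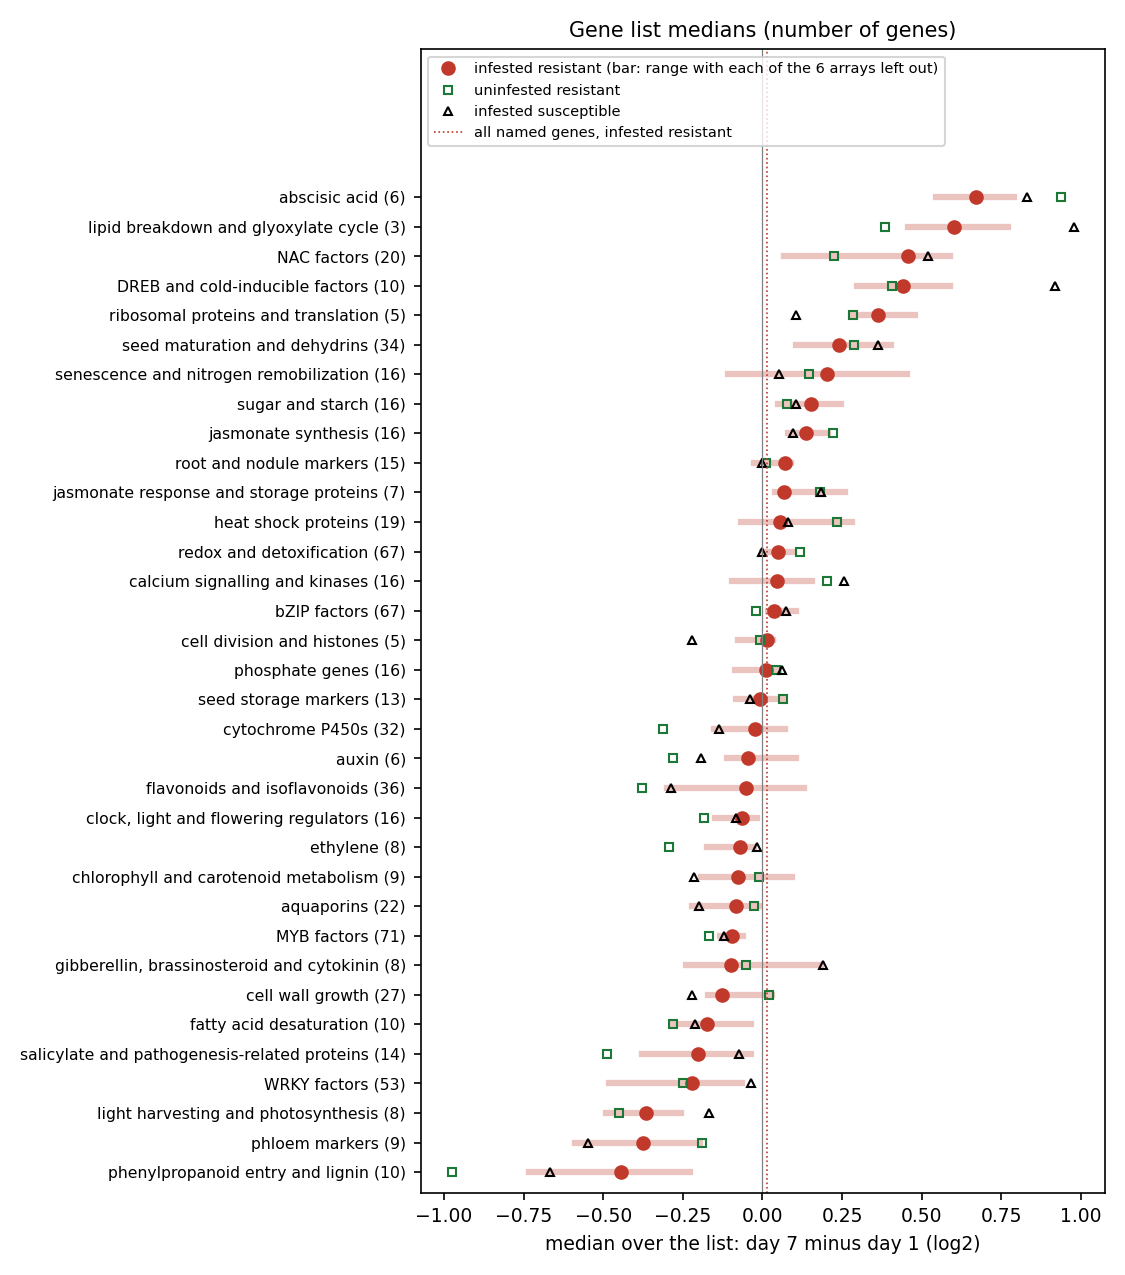
Median log2 day difference (day 7 minus day 1, x axis) of 34 gene lists (y axis, with the number of genes) in infested resistant leaves (filled circles), uninfested resistant leaves (squares) and infested susceptible leaves (triangles). Pale bars give the range of the infested resistant median when each of its 6 arrays is left out, and the lists run from abscisic acid at 0.67 down to phenylpropanoid entry and lignin at -0.44.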

How the data were processed

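Per the labels, biotin-labelled total RNA was hybridised to 1-colour arrays, and the deposited table holds log2 intensities of 24 arrays and 37653 probe sets, 60 of them controls. Per the submitters' processing notes, RMA, GCRMA and limma were among the tools, without a stated role. On the linear scale 99.6% of the deposited values were whole numbers within 0.01, and no background estimate came with them. Replicates are separate samples per the labels; nothing says they came from separate plants, so p-values measure the spread between samples, which may be technical. No pair of columns was identical (0), and the highest correlation between arrays was 0.991.

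The 37593 soybean probe sets were quantile-normalized and the 8 group means fitted with limma 3.58.1 in R 4.3.3 (prior degrees of freedom 3.65, residual 16), with Benjamini-Hochberg adjustment over all probe sets within each contrast. On simulated data with the same size, 66% of probe sets changed by a log2 difference of 1 were recovered. Of those changed by 2, 97% were recovered, and there were 10 false calls. Recovery in the real arrays, where the number of calls turned on single arrays, was not tested. Standard errors are those of the model, and intervals are 95%. Alternatives were other scalings, background correction, filters, variance models, covariates, subsets of arrays and a 2-fold minimum. The 2-fold minimum is a limma test of whether a difference exceeds 2-fold, and not a cutoff on the measured fold.

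Genes come from the platform annotation, in which 8677 soybean probe sets have 1 gene, 370 several and 28546 none; 8652 identifiers were found in the RefSeq table of Glycine_max_v4.0, and 1882 probe sets of 1131 genes have a name other than a locus number. Named genes are the up to 15 largest rises and 15 largest falls among called probe sets with separated groups. Added to these are the 5 smallest p of each difference of day differences. For each list the smallest p on either side of 0 (up to 3 genes a side) are added. The 2 largest rises and 2 largest falls of probe sets tied to no single gene are given too. The rule's part on protein descriptions could not be applied. Other names given (LOX10, PM and NAC members, jasmonate synthesis members, other probe sets of a gene, AOS2 in other leaves and genes repeated across contrasts) were chosen after their values were seen. The 34 gene lists come from name patterns, with 33 mistaken matches dropped by name only. The comparison and the lists were chosen with earlier results of these data known. Same-numbered arrays of day 7 and day 1 had correlations of deviations of 0.254, -0.114 and 0.161 in infested resistant leaves. In uninfested resistant leaves the correlations were 0.139, -0.0248 and 0.177. In both, day 7 replicates 1 and 3 correlated best with the same-numbered day 1 array. Replicate 2 did not, and the numbers were not taken to pair these samples. In infested susceptible leaves the correlations were 0.304, 0.211 and 0.187, all over 0.1, and every day 7 replicate correlated best with its own number. The main fit paired none of these samples, so its values in each kind of leaf ignore a possible pairing. Counts with a replicate block are given below.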

Additional observations from a re-analysis of the deposited data

How the results depend on the processing

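The number of probe sets called in infested resistant leaves, 302, moved widely with the processing. It was 88 without scaling (70 higher, 18 lower), 484 with only the brighter probe sets, 744 with array weights, 654 with the replicate block, 561 with the 3' minus 5' signal as a covariate, and 0 with a 2-fold minimum or with only the 6 arrays fitted. Chosen after seeing the data, it was 0 without the uninfested susceptible day 1 arrays, 0 with only the 12 resistant arrays fitted, and 1108 at an adjusted p below 0.1. Leaving out 1 array gave 0 to 2287. In uninfested resistant leaves, 1469 became 960 without scaling (238 higher, 722 lower), 4595 with array weights, 2 with a 2-fold minimum and 320 to 1420 with an array left out. In infested susceptible leaves, 2515 became 11461 without scaling (11227 higher, 234 lower), 5939 with array weights, 0 with a 2-fold minimum and 960 to 1776 with an array left out. For the infested minus uninfested difference, leaving out an array gave 0 or 1. For the resistant minus susceptible difference, a trended and robust variance and array weights each gave 1, and leaving out an array gave 0 to 13. The cause of these moves was not tested. The 20 named genes kept their direction in each of 17 alternatives that held them (17 of the genes were among the brighter probe sets). Their direction was largely fixed beforehand. The rule chose genes with separated groups, so leaving out an array could not turn it, and several alternatives change only the spread. All 20 lost the call with a 2-fold minimum and with only their own groups fitted. They also lost it without day 7 replicate 2 or 3 or day 1 replicate 1 or 2, and 7 kept it without scaling. The replicate block kept all 20 calls in infested resistant leaves, where same-numbered arrays did not all deviate together. In infested susceptible leaves, where they did, the block gave 2914 calls in place of 2515, and in uninfested resistant leaves 1807 in place of 1469. Both differences of day differences stayed at 0 with it. Precision is limited by 3 arrays per group, and without a background estimate dim probe sets cannot be told from background.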

Other observations

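Cell wall and growth genes included wide differences that did not pass. XET1, a xyloglucan endotransglycosylase of cell wall loosening, averaged 9.89 ± 0.94 on day 7 and 12.05 ± 0.95 on day 1 (SD, n = 3 arrays each), with a limma adjusted p of 0.063. GASA24, a gibberellin-regulated small protein, averaged 11.29 ± 0.58 on day 7 and 10.13 ± 0.13 on day 1, with an adjusted p of 0.064. SWEET17, a sugar transporter, read 10.05, 9.62 and 9.93 on day 7, against 7.49, 6.53 and 8.27 on day 1, and its difference of 2.44 ± 0.66 had an adjusted p of 0.077. In these 3 genes the days did not overlap.

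LHY, a clock gene with a daily rhythm, read 7.77, 8.07 and 7.30 on day 7, against 10.05, 9.04 and 8.36 on day 1, with an adjusted p of 0.069. The labels do not state the hour of sampling. All 5 ribosomal protein genes lay above 0, with a median of 0.36 in infested resistant, 0.28 in uninfested resistant and 0.10 in infested susceptible leaves, and 0 passed. The medians of the lists for cell division, flavonoids, phosphate, redox and cytochrome P450 genes ran from -0.05 to 0.05 and changed sign with the scaling or the arrays used.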
